A study of Mus musculus with 10 samples.

Results

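The clustered protocadherins are cell adhesion proteins of neurons, encoded by 3 adjoining gene clusters, alpha, beta and gamma, on mouse chromosome 18. They were taken as all genes of the count table whose symbol is *Pcdha*, *Pcdhac*, *Pcdhb*, *Pcdhga*, *Pcdhgb* or *Pcdhgc* followed by a number. This gave 58 of the 55414 genes listed: 14 of the alpha cluster, 22 of the beta cluster and 22 of the gamma cluster. The alpha cluster held 12 numbered genes and 2 C-type genes (*Pcdhac1* and *Pcdhac2*). The gamma cluster held 12 genes of the A subclass, 7 of the B subclass and 3 C-type genes (*Pcdhgc3*, *Pcdhgc4* and *Pcdhgc5*).

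Each of these genes has its own promoter and a large first exon that encodes the cadherin repeats and the membrane-spanning segment. In the alpha and gamma clusters this variable exon is spliced to constant exons that all genes of the cluster share and that encode a common cytoplasmic end, whereas the beta genes have no constant exons. A single neuron is known to use a few of the numbered genes, chosen largely at random through contacts of promoters with distant enhancers that need CTCF and cohesin, while C-type genes are used more uniformly. The proteins bind the same set of isoforms on a facing membrane, by which a neuron tells its own branches from those of others. In sensory neurons of the dorsal root ganglia (DRG) the gamma proteins are known for their part in the branching of touch neurons and their synapses.

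DRG of mouse embryos at E18.5, a tissue of neurons and glia taken whole, were measured by bulk RNA sequencing in 5 control and 5 *WD1* cKO libraries. Both groups carry *Dach1* flox/flox, an allele of the transcription factor Dach1 that Cre makes non-functional, kept on a mixed C57Bl/6J and CD1 background. The *WD1* cKO embryos also carry Wnt1Cre/+, in which *Wnt1* sequences drive Cre in neural crest, the source of DRG neurons and glia, whereas controls, which were littermates, lack Cre. The question was whether early loss of Dach1 changes the genes that these ganglia express. The genotype entries of the labels are exchanged against the sample titles, and the titles were used. *Dach1* went with the titles: it had 37.9 ± 2.40 counts per 1000000 counts (CPM, SD, n = 5) in control and 20.0 ± 0.677 in *WD1* cKO libraries (log2 fold change -0.92, SE 0.05, edgeR quasi-likelihood test, adjusted p = 5.48e-06).

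Control libraries held 20465132 to 27528784 counts in total, and *WD1* cKO libraries 19757596 to 34796562. The 10 sensory neuron markers summed to between 10678 and 12514 CPM in every library, and the 9 glial markers to between 1029 and 1326 CPM. Control replicate 3 stood apart by spinal cord markers, whose sum was 12.5 CPM there and at most 1.16 CPM in the other libraries. Red blood cell markers varied most in CPM, with 2504, 1652, 1083, 156 and 184 CPM in control libraries. The *WD1* cKO libraries had 1148, 722, 513, 244 and 190 CPM of these markers. In both groups replicates 1 to 3 thus lay above replicates 4 and 5. In whole ganglia, fewer cells that use a gene and less RNA of it per cell cannot be told apart.

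A test needs a minimum of counts, set at 10 counts in at least 5 libraries, and 54 of the 58 members met it. The other 4 had almost no counts. *Pcdhga10* was at 0 in all 10 libraries. *Pcdha4* had 0, 0, 2, 0 and 0 counts in control and 1, 1, 1, 2 and 0 counts in *WD1* cKO libraries. *Pcdha11* had 0, 3, 1, 3 and 0 counts in control and 1, 0, 1, 0 and 1 counts in *WD1* cKO libraries. *Pcdhb1*, the first gene of the beta cluster, had 1, 0, 1, 0 and 0 counts in control and 0, 0, 1, 1 and 2 counts in *WD1* cKO libraries. No group difference was detectable for these genes at this depth.

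For 3 of the 4, the annotation places other genes over the bases by which the member could be told from its neighbours. The share of a member's own exonic bases (those in no other member) that another gene covers was 100% for *Pcdhga10*, 86.1% for *Pcdha4* and 72.9% for *Pcdha11*. The genes over them are *Gm26672* on the opposite strand for *Pcdhga10*, *Gm42416* on the same strand for *Pcdha4*, and mainly *Gm10545* on the opposite strand for *Pcdha11*. *Gm42416* was itself at 0 in all libraries, *Gm10545* had 2 to 10 counts and *Gm26672* 6 to 18 counts. *Pcdhb1* has no such overlap. Reads that fall on 2 genes are often credited to neither, and the sources used here do not give the settings for overlapping genes or for strand, so these 3 low counts were not read as low expression, and the part of the counting was not tested. Partial overlap did not always go with few counts: *Pcdhga11*, with 52.4% of its own bases covered by *Gm26672*, had a mean of 288 counts, and *Pcdhb12*, with 63.5% covered by *Gm37446*, had 44.6. Counts of *Pcdhga11* and *Pcdhb12* can come from the bases that no other gene covers, 1256 and 1107. Such bases number 0 in *Pcdhga10*, 404 in *Pcdha4* and 1268 in *Pcdha11*. Overlap touched 15 members in all.

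**Figure D1:**
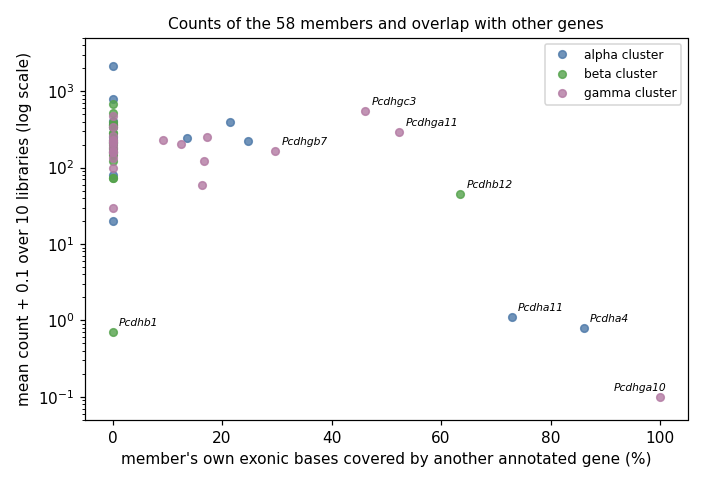
Mean count of each of the 58 members over the 10 libraries (log scale, 0.1 added so that 0 can be drawn) against the percent of the member's own exonic bases that another annotated gene covers, coloured by cluster. *Pcdhga10* (100% covered), *Pcdha4* (86.1%) and *Pcdha11* (72.9%) lie at 1 count or less, as does *Pcdhb1*, which has no overlap, while *Pcdhga11* (52.4%) and *Pcdhgc3* (46.1%) have means of 288 and 543 counts.

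Since genes of 1 cluster share their constant exons, a read in those exons belongs to no single gene. Within the alpha cluster mean counts ran from 0.7 to 2116 and within the gamma cluster from 0 to 543, so such reads were not credited to every gene. Levels were therefore compared between genes as CPM per kilobase of exonic bases that no other gene on the same strand shares. On this scale the median of the 54 members was 2.55 CPM per kb, and levels ran over 89.4-fold, from 0.314 for *Pcdha8* to 28.0 for *Pcdhac2*. Only 9 members were above 5 CPM per kb, and 5 were below 1.

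The C-type genes spanned nearly the whole of this range. *Pcdhac2*, which is needed for the spacing of serotonergic axons, had the highest level of all members at 28.0 ± 2.03 CPM per kb (SD over 10 libraries). *Pcdhac1* followed at 12.3 ± 1.70 CPM per kb. Each of these genes had a range over libraries that did not overlap that of the next gene in order. They kept places 1 and 2 by their means with the 3 choices of length tried and with any single library left out. *Pcdhgc3*, whose protein is known to bind Axin1, was at 6.49 ± 0.851 CPM per kb. It would be at 12.05 if the bases under the opposite-strand gene *BC037039* were left out of its length, which moves it from place 5 to place 3. Its range over libraries, 10.05 to 15.5 CPM per kb on that length, would then overlap that of *Pcdhac1*, 9.99 to 14.3, so *Pcdhac1* stood apart with the same-strand length only. *Pcdhgc4*, the isoform that neuronal survival depends on, had 2.68 ± 0.421 CPM per kb, close to the median of all members. *Pcdhgc5*, the last gene of the gamma cluster, had 0.516 ± 0.0947 CPM per kb and stood at place 52 of 54. The highest and the lowest of the 5 C-type genes thus differed 54.3-fold.

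The 10 numbered alpha genes tested had a median of 4.38 CPM per kb. *Pcdha9* at 6.73 ± 0.862 and *Pcdha12* at 6.45 ± 0.597 CPM per kb were the highest, and their ranges over libraries overlapped. Without the bases under *Gm10545*, *Pcdha12* would be at 8.21 CPM per kb and above *Pcdha9*. *Pcdha2* and *Pcdha3*, near the other end of the array, were also above 5 CPM per kb. *Pcdha8* was the lowest of all tested members, with 0.314 ± 0.177 CPM per kb from 8 to 41 counts per library, although its neighbours *Pcdha7* and *Pcdha9* were at 4.69 and 6.73.

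The 21 beta genes tested had the lowest median of the subclasses on this scale, 1.93 CPM per kb. Their span was 7.99-fold, wider than the 4.00-fold of gamma A and narrower than the 21.5-fold of the numbered alpha genes. *Pcdhb9* at 4.75 ± 0.319 and *Pcdhb17* at 4.44 ± 0.354 CPM per kb were the highest, with overlapping ranges. With all exonic bases, shared ones included, they moved from places 11 and 13 to places 3 and 4, so the place of beta genes depends on the length used. *Pcdhb12* was the lowest at 0.595 ± 0.106 CPM per kb, and would be at 1.63 without the bases under *Gm37446*. In CPM, not per length, the leading beta gene was *Pcdhb22*, the last of its cluster, with 26.3 ± 1.60 in control libraries.

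Among the 11 gamma A genes tested the median was 3.28 CPM per kb, with *Pcdhga3* at 7.48 ± 0.987 and *Pcdhga4* at 4.79 ± 0.442 as the highest and *Pcdhga9* at 1.87 ± 0.426 as the lowest. The place of *Pcdhga4* rests on the shortest length among these genes, 1570 bases. With all exonic bases it moved from place 10 to place 34, below *Pcdhga11* at place 17 and *Pcdhga2* at place 19. Without the bases under the opposite-strand gene *Gm26672*, *Pcdhga11* would be at 9.27 instead of 4.41 CPM per kb and would lead this subclass. The 7 gamma B genes had a median of 2.38 CPM per kb. *Pcdhgb6* led with 5.31 ± 0.512 CPM per kb and *Pcdhgb7* followed at 2.57 ± 0.403. *Pcdhgb8*, which the annotation calls a polymorphic pseudogene, was the lowest at 0.467 ± 0.0764 CPM per kb.

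**Figure D2:**
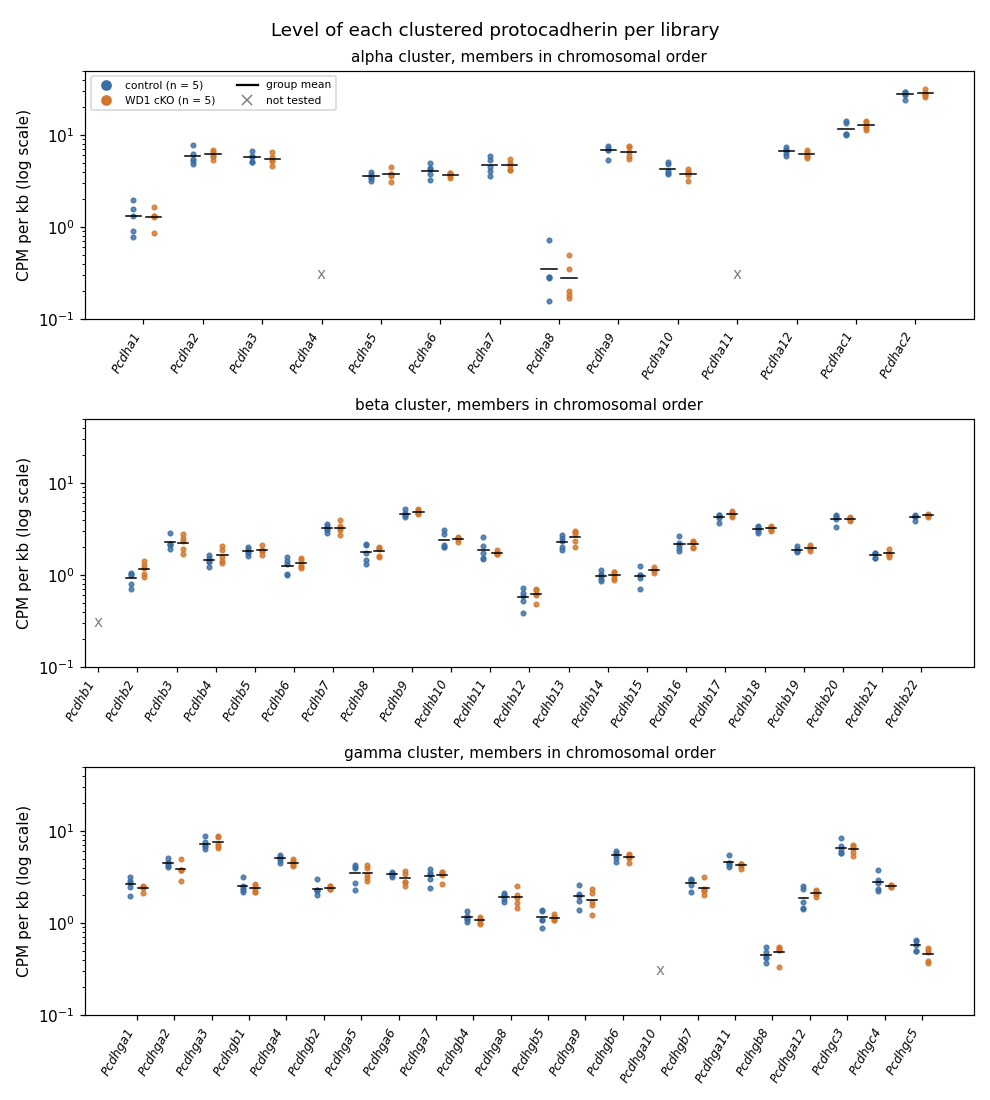
Level of each member in CPM per kb (log scale) in every library, with control in blue and *WD1* cKO in orange (n = 5 each), black bars for group means, and crosses for the 4 members not tested. *Pcdhac2* (28.0 CPM per kb over all libraries) and *Pcdhac1* (12.3) stand above the other members, and *Pcdha8* (0.314) lies lowest, with the points of both groups at like heights for each gene.

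Apart from these few, the order was gradual. Of the 53 pairs of neighbours in the order of levels, 3 had ranges over the libraries that did not overlap: *Pcdhac2* over *Pcdhac1*, *Pcdhac1* over *Pcdhga3*, and *Pcdhb14* over *Pcdhb12*. The last of these turned without the bases under *Gm37446*, where *Pcdhb12* would be at 1.63 CPM per kb and *Pcdhb14* at 0.987. The place of a gene within its cluster had only a low correlation with its level. Spearman's rho between chromosomal order and CPM per kb was 0.32 over the 10 alpha genes, 0.31 over the 21 beta genes and -0.36 over the 18 gamma A and B genes, points that share the same libraries.

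Near-identical stretches could also blur single genes. The share of 100-base stretches of the first exon found unchanged in another member was 0 for all 5 C-type genes. It had a median of 5.45% and a highest value of 9.65% (*Pcdha11*) among the numbered alpha genes, and reached 9.80% in *Pcdhgb2*. The highest beta value was 7.73% in *Pcdhb21*, but the annotated end of this gene overlaps the start of *Pcdhb22*. Of its 4705 exonic bases 4250 lie in no other member, so this value includes bases annotated to both genes and is no measure of likeness between them. How multiply mapped reads were treated is not given in the sources used here.

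Summed over each cluster, the groups lay close together. The alpha cluster summed to 207, 217, 200.5, 231 and 240.4 CPM in control and to 218, 234, 204, 220.4 and 223 CPM in *WD1* cKO libraries. The groups overlapped in full, with means of 219 ± 16.5 and 219.8 ± 10.5 CPM. *Pcdhac2* alone gave 38.3 ± 1.85% of the alpha cluster's counts in control and 39.0 ± 1.25% in *WD1* cKO libraries, and *Pcdhac1* 13.6 ± 1.54% and 14.9 ± 1.09%.

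The beta cluster summed to 185, 223, 198, 206 and 210.02 CPM in control and to 219, 209, 217, 214 and 207 CPM in *WD1* cKO libraries. The *WD1* cKO libraries lay within the range of the controls, and control replicate 1 was the lowest library. The means were 204 ± 14.1 CPM in control and 213 ± 5.03 CPM in *WD1* cKO libraries, and without control replicate 1 the control mean was 209 CPM. Control replicate 1 was also the lowest library for 12 of the 21 beta genes tested, and it held the most red blood cell RNA, 2504 CPM of its markers. Control replicate 2 held the next most, 1652 CPM, but had the highest beta sum, 223 CPM. The part of red blood cell RNA in the lower beta counts of control replicate 1 was not tested.

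The gamma cluster summed to 166, 173, 210.1, 189.6 and 195 CPM in control and to 186, 188, 178, 178 and 165 CPM in *WD1* cKO libraries. Control replicate 3, the library with spinal cord markers, was the highest. It also had the most connective tissue markers (3677 CPM, with 3492 in the next library) and endothelial markers (257 CPM), and the fewest sensory neuron markers (10678 CPM). It was the highest library for 7 of the 21 gamma genes tested but for 1 beta and 0 alpha genes. The means were 187 ± 17.6 CPM in control and 179 ± 8.95 CPM in *WD1* cKO libraries. Without control replicate 3 the control mean was 181 ± 13.7 CPM, so most of the gap between the groups went with that library. *WD1* cKO replicate 5 was the lowest library, at 165 CPM, and the lowest for 7 of the 21 gamma genes. Without it the *WD1* cKO mean was 182 CPM, so the gap also shrank when that library was left out. The part of these other tissues in the gamma counts of control replicate 3 was not tested.

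**Figure D3:**
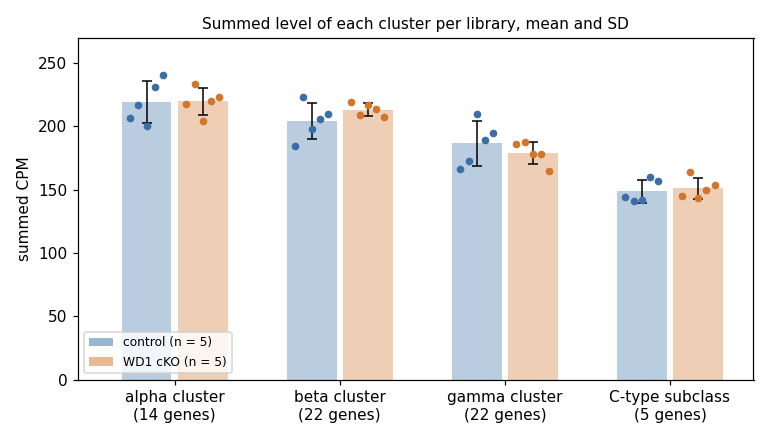
Summed CPM of the genes of each cluster, and of the 5 C-type genes of the alpha and gamma clusters, with 1 point per library, bars at the mean and error bars of 1 SD (n = 5 per group). Control and *WD1* cKO points overlap in every sum, with means of 219 and 219.8 CPM for alpha, 204 and 213 CPM for beta, and 187 and 179 CPM for gamma.

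No clustered protocadherin passed the test of *WD1* cKO against control. In the edgeR fit, 0 of the 54 members had an adjusted p below 0.05, where 0.04% of all 17490 genes tested did. The smallest adjusted p of a member was 1.00. At an unadjusted p below 0.05 there were 2 members, *Pcdhb2* and *Pcdhgc5*, which is 2 of 54 beside 4.5% of all genes. DESeq2's Wald test gave 0 members by adjusted and 1 by unadjusted p. At the study's cut-off, an unadjusted p below 0.005 with an absolute log2 fold change above 0.15, there were 0 members beside 0.383% of all genes. For no member were the groups free of overlap, where they were for 1.06% of all genes. These shares are near or under the background and give no result about the members as a group.

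*Pcdhb2*, an early gene of the beta cluster, had 2.00, 2.87, 2.26, 2.83 and 2.95 CPM in control and 3.96, 3.65, 3.38, 2.90 and 2.68 CPM in *WD1* cKO libraries. The first 3 *WD1* cKO libraries lay above all controls and the other two among them. The means were 2.58 ± 0.425 and 3.31 ± 0.525 CPM, a log2 fold change of 0.35 with an SE of 0.15 (edgeR, unadjusted p = 0.0325, adjusted p = 1.00). An exact permutation test of log2 CPM (two-sided, 5 against 5) gave p = 0.0635, where the smallest value the design allows is 0.00794. The unadjusted p of the edgeR test ran from 0.0149 to 0.0834 when single libraries were left out and was above 0.05 in 5 of these 10 fits.

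*Pcdhgc5* had 2.93, 3.04, 2.31, 2.28 and 2.68 CPM in control and 1.68, 2.32, 1.79, 2.49 and 2.25 CPM in *WD1* cKO libraries. The groups overlapped, with 3 *WD1* cKO libraries below all controls and 3 controls above all *WD1* cKO libraries. The means were 2.65 ± 0.348 and 2.11 ± 0.351 CPM, a log2 fold change of -0.33 with an SE of 0.14 (edgeR, unadjusted p = 0.0402, adjusted p = 1.00). An exact permutation test (two-sided) gave p = 0.0556. Without single libraries the unadjusted p of the edgeR test ran from 0.0246 to 0.0987, and it was above 0.05 in 5 of the 10 fits. Both genes rest on 40 to 102 counts per library.

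The other C-type genes were measured more precisely. *Pcdhac2* had 85.4, 83.5, 73.0, 87.9 and 89.4 CPM in control and 81.7, 95.7, 79.0, 85.6 and 87.2 CPM in *WD1* cKO libraries, with control replicate 3 the lowest and the groups otherwise mixed. Its log2 fold change was 0.03 with a 95% interval from -0.10 to 0.17, and its sign turned without control replicate 3 (-0.01) or without *WD1* cKO replicate 2 (-0.01).

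*Pcdhac1* had 26.5, 26.4, 25.6, 36.7 and 35.0 CPM in control and 29.1, 35.1, 30.5, 32.2 and 36.6 CPM in *WD1* cKO libraries. Control replicates 1 to 3 lay below all other libraries, and replicates 4 and 5 among or above the *WD1* cKO ones. Its log2 fold change was 0.12 (95% interval from -0.12 to 0.36).

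*Pcdhgc3* had 21.2, 19.8, 28.2, 23.5 and 19.3 CPM in control and 23.6, 21.9, 23.2, 20.3 and 18.3 CPM in *WD1* cKO libraries. *Pcdhgc4* had 7.80, 8.25, 13.0, 9.49 and 10.3 CPM in control and 8.68, 8.85, 8.64, 8.99 and 9.09 CPM in *WD1* cKO libraries. Both were highest in control replicate 3, the library with spinal cord markers, and the *WD1* cKO values of *Pcdhgc4* lay inside the control range. The log2 fold change was -0.06 (95% interval from -0.29 to 0.17) for *Pcdhgc3* and -0.14 (from -0.40 to 0.11) for *Pcdhgc4*. Without control replicate 3 these were 0.03 and -0.02, so the sign of *Pcdhgc3* and most of the difference of *Pcdhgc4* went with that library.

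**Figure D4:**
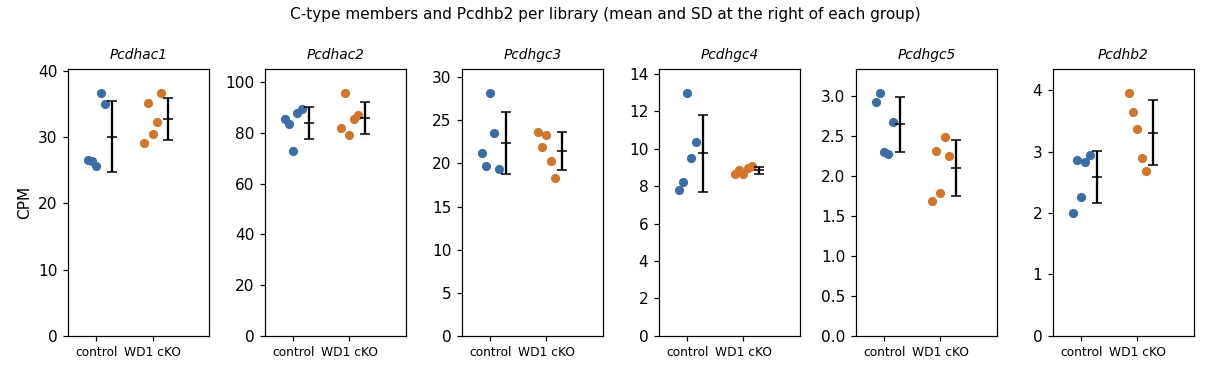
CPM of the 5 C-type members and of *Pcdhb2* in each library (blue control, orange *WD1* cKO, n = 5 each), with the mean and 1 SD at the right of each group and each axis from 0. The groups overlap in all 6 panels, also for *Pcdhgc5* (means of 2.65 and 2.11 CPM) and *Pcdhb2* (2.58 and 3.31 CPM), and the high control point of *Pcdhgc3* and *Pcdhgc4* is replicate 3.

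Of the numbered genes with the highest levels, *Pcdha9* had 17.3, 13.3, 18.1, 19.0 and 17.2 CPM in control and 13.8, 18.6, 16.0, 18.9 and 14.7 CPM in *WD1* cKO libraries. *Pcdha12* had 14.6, 18.6, 16.0, 17.1 and 17.1 CPM in control and 17.1, 14.6, 14.0, 16.1 and 14.6 CPM in *WD1* cKO libraries. The groups of both genes overlapped widely, and the log2 fold changes were -0.06 (SE 0.11) and -0.13 (SE 0.07).

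*Pcdhb9* had 13.0, 13.7, 14.5, 15.9 and 13.7 CPM in control and 14.5, 14.4, 14.1, 16.0 and 15.5 CPM in *WD1* cKO libraries. *Pcdhb17* had 17.2, 20.99, 20.8, 19.4 and 20.6 CPM in control and 21.6, 22.0, 23.4, 20.2 and 20.7 CPM in *WD1* cKO libraries. The 3 highest libraries of *Pcdhb17* were *WD1* cKO and the lowest was control replicate 1, with a log2 fold change of 0.12 (SE 0.06, unadjusted p = 0.0763 by edgeR's test). That of *Pcdhb9* was 0.07 (SE 0.06).

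*Pcdhga3* had 17.8, 16.6, 23.1, 17.8 and 19.7 CPM in control and 18.7, 22.6, 18.1, 23.2 and 16.9 CPM in *WD1* cKO libraries. *Pcdhga4* had 8.73, 7.94, 8.28, 7.07 and 7.61 CPM in control and 7.41, 6.76, 7.85, 7.06 and 6.52 CPM in *WD1* cKO libraries. *Pcdhga4* was highest in 3 controls but overlapped between the groups, with a log2 fold change of -0.15 (SE 0.08, unadjusted p = 0.0797 by edgeR's test), and *Pcdhga3* was mixed, with 0.06 (SE 0.11).

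*Pcdhgb6* had 11.8, 13.1, 14.9, 14.2 and 15.7 CPM in control and 14.3, 13.4, 14.1, 13.2 and 11.5 CPM in *WD1* cKO libraries. *Pcdhgb7* had 7.56, 7.85, 7.67, 5.70 and 6.77 CPM in control and 8.13, 6.08, 5.99, 5.74 and 5.28 CPM in *WD1* cKO libraries. For *Pcdhgb7* the highest and the lowest library were both *WD1* cKO. The log2 fold changes of these gamma B genes were -0.07 (SE 0.09) and -0.19 (SE 0.12).

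The lowest genes of each subclass gave wider intervals. *Pcdha8* had 0.390, 0.706, 0.706, 0.699 and 1.80 CPM in control and 0.421, 0.494, 1.23, 0.457 and 0.866 CPM in *WD1* cKO libraries, and control replicate 5 was the highest by far. *Pcdhb12* had 1.17, 2.21, 1.79, 1.58 and 1.94 CPM in control and 2.06, 1.82, 1.89, 2.13 and 1.47 CPM in *WD1* cKO libraries. *Pcdhga9* had 4.83, 6.88, 7.11, 6.07 and 8.97 CPM in control and 8.09, 4.22, 5.90, 5.39 and 7.33 CPM in *WD1* cKO libraries. These 3 genes varied within the groups by more than between them, with 95% intervals of the log2 fold change from -1.16 to 0.61, from -0.28 to 0.48 and from -0.53 to 0.28. *Pcdhgb8* had 1.22, 0.926, 1.37, 1.03 and 1.06 CPM in control and 1.35, 0.836, 1.26, 1.27 and 1.36 CPM in *WD1* cKO libraries, also mixed, with an interval from -0.26 to 0.50.

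Over all 54 members the log2 fold changes ran from -0.33 to 0.35, and 29 were above and 25 below 0. Their median was 0.01, beside 0.00 over all genes tested. The 95% interval of 47 members lay within 0.5 of 0 on the log2 scale, and that of 53 within 1, *Pcdha8* being the exception. The narrowest interval was that of *Pcdhb22*, with 0.10 to either side, and the median was 0.24.

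The clusters leaned to different sides. Of the 21 beta genes tested 18 were higher in *WD1* cKO libraries, with a median log2 fold change of 0.06. Of the 21 gamma genes 15 were lower, with a median of -0.09, and of the 12 alpha genes 7 were lower, with a median of -0.04. Among all genes tested 50.1% were higher. Over the 18 alternative settings the median stayed between 0.02 and 0.08 for beta and between -0.12 and -0.03 for gamma, and that of alpha ran from -0.09 to 0.06. The beta median was lowest, 0.02, with the level of *Xist* as a covariate, where the gamma median was -0.09. It was 0.03 for beta without control replicate 1 and also 0.03 without control replicate 3. The gamma median was -0.05 without control replicate 3, -0.05 without *WD1* cKO replicate 5 and -0.03 without control replicate 5. Genes of a cluster were measured in the same libraries and are not independent, so these counts are a description.

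**Figure D5:**
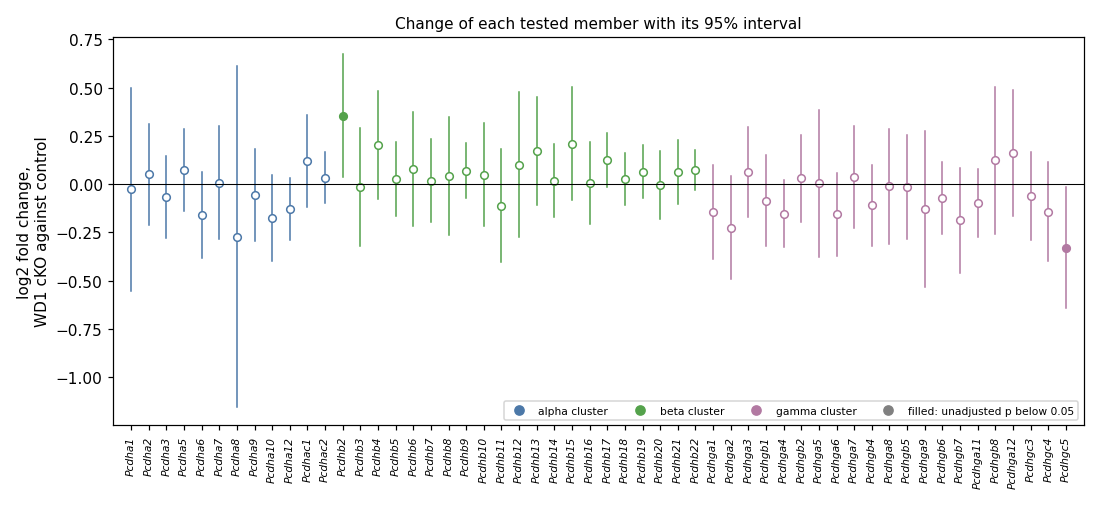
Log2 fold change of *WD1* cKO against control for the 54 members tested, in chromosomal order, with 95% intervals from edgeR's fit and filled points for an unadjusted p below 0.05. The intervals of 52 members cover 0, *Pcdhb2* (0.35) and *Pcdhgc5* (-0.33) being the exceptions at the unadjusted level, and 18 of 21 beta points lie above 0 and 15 of 21 gamma points below it.

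The members varied more between libraries of a group than most genes. The biological coefficient of variation had a median of 0.12 over the members and 0.08 over all genes tested, and 7 of the 54 members were under the latter. The members are low in counts, where this measure rises: the level edgeR's trend gives at their abundance had a median of 0.14, and 18 of the 54 (33.3%) lay above their trend, beside 19.2% of all genes. Past the 95th percentile of all genes (0.26) were *Pcdha8* with 0.40 and *Pcdha1*, the first gene of the alpha cluster, with 0.26. *Pcdha1* had 2.24, 1.94, 3.30, 3.86 and 4.88 CPM in control and 3.24, 3.27, 2.15, 3.20 and 4.10 CPM in *WD1* cKO libraries, with replicate 5 the highest of each group.

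Genes that act on the clusters had a median biological coefficient of variation of 0.05, beside 0.12 over the members. Their level was higher, with a median log2 CPM of 6.61 in edgeR's fit beside 3.14 for the members. As this measure rises at low counts, the 2 medians do not compare the genes at like level. Of 16 genes for promoter choice and silencing 0 had an unadjusted p below 0.05 by edgeR's test, beside 4.5% of all genes tested. The median log2 fold change of these 16 was 0.01. *Ctcf*, which anchors promoter and enhancer contacts, had 69.9 ± 4.07 CPM in control and 69.7 ± 4.07 CPM in *WD1* cKO libraries (log2 fold change -0.01, SE 0.05). *Smchd1*, a silencer of clustered protocadherins and of the inactive X chromosome, had 64.3 ± 3.29 and 65.9 ± 2.65 CPM (0.03, SE 0.04). *Dnmt3b*, the DNA methyltransferase that acts on these promoters in early development, was low, with 3.37 ± 0.450 and 3.15 ± 0.404 CPM (-0.10, SE 0.13).

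Of 19 genes for proteins that bind clustered protocadherins or act after them, such as the kinases FAK and Fyn and the WAVE complex, 0 had an unadjusted p below 0.05, with a median log2 fold change of -0.02. Among 9 neighbours on chromosome 18, *Taf7*, a subunit of the TFIID transcription factor that lies between the beta and gamma clusters, was the exception at the unadjusted level. It had 17.5, 17.2, 16.9, 15.0 and 16.7 CPM in control and 18.6, 17.9, 20.1, 17.7 and 17.9 CPM in *WD1* cKO libraries, all above the controls (log2 fold change 0.15, SE 0.06, edgeR unadjusted p = 0.0242, adjusted p = 1.00). Over all genes tested 4.5% had an unadjusted p below 0.05, and groups free of overlap, as for *Taf7*, were seen in 1.06%. Of 10 protocadherins outside the clusters, *Pcdh7* (0.26, SE 0.03, adjusted p = 0.0273), *Pcdh11x* (0.40, SE 0.10, adjusted p = 0.784) and *Pcdh19* (0.23, SE 0.08, adjusted p = 1.00) had an unadjusted p below 0.05 by edgeR's test. The study itself names *Pcdh7* and *Pcdh11x* among the genes higher after loss of Dach1, from these libraries, so they are no independent finding.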

How the data were processed

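DRG were dissected at E18.5 and RNA libraries were made with the Illumina Stranded mRNA Prep. The authors processed reads with bcl2fastq 2.20.0.422, STAR 2.7.8a (GRCm39) and featureCounts 2.0.1, and deposited unnormalised counts per gene for each library. The settings for strand, overlapping genes and multiply mapped reads are not given in the sources used here, nor is it given which embryos shared a litter, so p-values measure the spread between these libraries.

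Symbols, gene order and exonic lengths came from the GENCODE annotation of GRCm38, another build than that of the counts, and no coordinates were taken across. A symbol was matched to 52081 of 55414 genes. One of 2 identifiers that GENCODE names *Pcdha11* was renamed *Pcdha10* by its start in RefSeq.

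The groups were compared in edgeR 4.0.16 (R 4.3.3) by the quasi-likelihood test after TMM scaling. The filter kept 17490 genes, those reaching 10 counts in 5 or more libraries, and p-values were adjusted over them (Benjamini-Hochberg). The SE is the log2 fold change over the root of the F statistic. CPM are TMM-scaled. Permutation tests used log2(CPM + 0.5). The code was tested on simulated data. No 2 libraries of a group agreed within sampling noise, so each was counted as 1 replicate.

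Members named are those with an unadjusted p below 0.05, the C-type genes, the 2 highest and the lowest per subclass, those not tested and those of the largest spread. The members and gene lists were chosen with earlier results of these data known. Of the neighbour list, *Relch* was dropped because the annotation places it on another chromosome, and *Hars1* stands under its older name *Hars*.

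The alternatives were DESeq2 1.42.0 (size factors and Wald test), no filter, a filter at a mean count of 100, a replicate block, *Xist* as a covariate, robust dispersions and each library left out. For sums, total counts were also used, and for levels all exonic bases. A term that separates replicates 4 and 5, and lengths free of genes on either strand, were added after seeing the data. No member sequence is printed.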

Additional observations from a re-analysis of the deposited data

Results flagged for a closer look

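In groups of 5 libraries, a library was marked where Dixon's ratio, the distance to its closest neighbour over the range of the group, was above 0.71. Of 114 groups (54 members and 3 cluster sums in each of 2 groups), 8 were marked, and chance marks about 1 in 20, which is 5.7 of 114. In control libraries, *Pcdha8* had 1.80 CPM in replicate 5 (41 counts) and 0.390 to 0.706 CPM in the other libraries. *Pcdhb3* had 10.9 CPM in replicate 2 and 7.35 to 8.34 CPM in the others. *Pcdhgb2* had 8.38 CPM in replicate 3, the library with spinal cord markers, and 5.51 to 6.26 CPM in the others. *Pcdhga11* had 14.4 CPM in replicate 5 and 10.8 to 11.9 CPM in the others. In *WD1* cKO libraries, *Pcdhga1* had 6.81 CPM in replicate 5 and 7.88 to 8.17 CPM in the others, and *Pcdhga7* had 8.28 CPM in replicate 3 and 10.4 to 11.2 CPM in the others. *Pcdhgb7* had 8.13 CPM in replicate 1 and 5.28 to 6.08 CPM in the others, and *Pcdhgb8* had 0.836 CPM in replicate 2 (22 counts) and 1.26 to 1.36 CPM in the others. No cluster sum was marked.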

How the results depend on the processing

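No member had an adjusted p below 0.05 in any of the 18 alternatives. Shares over all genes are given for the fit as reported only, so the counts that follow have no background beside them. The count at an unadjusted p below 0.05, 2 of 54 with edgeR as reported, was 1 with no filter on low counts (57 members tested) and 1 with DESeq2's Wald test. It was 0 among the 46 members whose mean count reached 100. With the term that separates replicates 4 and 5, which was chosen after seeing the data, it was 4, with *Pcdhga2* and *Pcdhga4*, both lower, added. With the *Xist* covariate it was 2, but these were *Pcdha10* and *Pcdha12*, both lower, in place of *Pcdhb2* (edgeR, unadjusted p = 0.0707) and *Pcdhgc5* (unadjusted p = 0.0538). Without single libraries it ran from 1 (without control replicate 3 or *WD1* cKO replicate 3) to 3. With a replicate block it was 1, *Pcdhgc5*, and *Pcdhb2* had an unadjusted p of 0.0555 in edgeR. Pairing by number was not taken as shown, since r over 0.1 was asked of every pair: deviations of same-numbered libraries correlated with r from 0.33 to 0.42 in 4 pairs and -0.02 in replicate 2, and 3 of 5 correlated best with their own number.

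The median log2 fold change of the members ran from -0.03 to 0.04 over the alternatives. The median log2 fold change of the alpha cluster ran from -0.095 to 0.060 without single libraries, the latter without control replicate 5. The log2 fold change of *Pcdhgc3* (-0.06 as reported) was 0.024 with the *Xist* covariate, and without single libraries it ran from -0.11 to 0.034, turning without control replicate 3. The log2 fold change of *Pcdhac2* (0.03 as reported) ran from -0.012 (control replicate 3) to 0.061 without single libraries and also turned without *WD1* cKO replicate 2 (-0.0087). *Pcdhga3*, at place 3 by level per kb, was at place 5 with all exonic bases and at place 6 with bases free of genes on either strand. The cause of these moves was not tested. With all exonic bases 30 of 54 members moved by over 5 places, and with bases free of genes on either strand 4 did. *Pcdha8*, with the widest interval, had 8 to 41 counts per library and also the largest spread of the members, and the parts of depth and spread were not told apart.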
